A study of Mus musculus with 6 samples.

Results

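Semaphorins, ephrins and their receptors were first described as guidance cues of growing axons and blood vessels. Semaphorins are secreted (class 3), membrane-spanning (classes 4, 5 and 6) or anchored by a lipid (class 7), and they act through plexins, whose cytoplasmic part switches off small GTPases of the Ras and Rap type. Class 3 semaphorins mostly need a neuropilin as co-receptor, and neuropilins also bind vascular endothelial growth factor. Ephrins are held in the membrane by a lipid anchor (A type) or a transmembrane segment (B type) and bind Eph receptor tyrosine kinases on a neighbouring cell, with signals in both directions. In microglia, the macrophages of the brain, plexins and class 4 semaphorins are known for roles in migration, cell shape and contact with other immune and glial cells.

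The genes described here are all rows of the count table with a symbol of the forms Sema3 to Sema7 with a letter, Plxn a to d, Nrp1 and Nrp2, Efna and Efnb, and Epha and Ephb. The rule found 53 genes among the 41079 listed, namely 20 semaphorins, 11 plexins and neuropilins, 8 ephrins and 14 Eph receptors. RNA-seq libraries came from microglia of C57Bl/6N mice aged 1 to 3 days at dissection. The cells were grown in mixed glial flasks with 20% L-929 conditioned medium, a source of M-CSF, and shaken off. Per the study's methods, these flasks held medium with serum for weeks before shaking. The shaken cells also adhered briefly in serum before the medium was changed. The 3 control libraries came from serum-free DMEM/F12 medium. The 3 optimized libraries came, per the labels, from cells with human TGF-β1, IL-34 and CX3CL1 at 100 ng/mL each, to which the study's methods add cholesterol, insulin-transferrin-selenium and a collagen IV coating. Brains of several pups were pooled in each flask, and all agents were given together, so their parts cannot be told apart.

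The libraries held 20628148 to 27261839 counts. The study describes the 3 libraries of a group as biological replicates, but which culture each came from is not given in the sources used here, so p-values measure the spread between these libraries. Of 10 microglial markers, 9 were listed, with a summed level of 8550 to 9290 CPM (counts scaled to a common library size) in control and 13200 to 17200 CPM in optimized libraries. Of these 9, 6 were higher and 2, Csf1r and Aif1, were lower (log2 fold changes -0.39 and -0.45). Summed markers of other brain cells were lower than the microglial sum in all 6 libraries. Their control and optimized libraries did not overlap, except for fibroblast and pericyte markers. Neuronal markers summed to 4.87 to 6.44 CPM in control and 7.69 to 8.33 CPM in optimized libraries, with Nefl and Nefm higher among 5 tested. Nefl and Nefm share 1152 exon bases on opposite strands, and how reads on both were counted is not given in the sources used here. Oligodendrocyte markers summed to 137 to 154 and 167 to 205 CPM, with Mbp higher among 7, and astrocyte markers to 40.1 to 42.3 and 29.8 to 34.9 CPM, with Aldh1l1 lower among 8 (log2 fold change -1.83). The part of these markers in the results for the guidance genes was not tested. The oligodendrocyte precursor list rose from between 42.3 and 54.1 to between 452 and 635 CPM, of which Cspg4 made up 435 to 618 CPM, and the endothelial list from between 81.5 and 97.1 to between 274 and 353 CPM, of which Flt1 made up 269 to 347 CPM. In both lists no other member passed the test, and the endothelial marker Cldn5 averaged 0 CPM in control. Fibroblast and pericyte markers summed to 28.9 to 47.3 CPM in 5 libraries and to 149 CPM in optimized library 3. In bulk RNA, fewer cells of a type and less RNA per cell cannot be told apart.

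Of the 53 guidance genes, 35 had enough counts to be tested and 17 passed an adjusted p-value of 0.05 by edgeR's quasi-likelihood test, 9 higher and 8 lower under the optimized conditions. Among all 14618 genes tested, 29.8% passed, 14.7% higher and 15.2% lower, against 48.6% of the 35. The share of guidance genes changed when 1 library was left out. It was 28.9%, 28.2% and 28.9% of the members tested without control library 2, control library 3 or optimized library 3. In the same fits fewer of all genes passed too, namely 3249 of 14932, 3340 of 14982 and 3489 of 15039. The median log2 fold change was 0.43 over the 35 and 0.0079 over all genes tested. That median was 0.059 without optimized library 1, -0.079 over the 25 members with at least 10 counts in every library, and -0.44 over the 15 with a mean of at least 1 FPKM (limma on log2(FPKM + 1)). The limma fit also differs in scaling, and all its genes that were in the main test had a median of -0.134. No common direction of the set was thus shown. By family, 6 of 15 tested semaphorins were higher and 4 lower, 1 of 11 plexins and neuropilins was higher and 4 lower, 1 of 5 tested ephrins was higher, and 1 of 4 tested Eph receptors was higher. The lower genes included the most abundant semaphorin and both neuropilins, whereas the higher genes were mostly of low level. Of all calls 49.1% were higher; with scaling by library size alone, which shifts the median of all genes by -0.129, 32.3% were, and 6 guidance genes were then higher and 8 lower. The number of higher genes fell to 4 without control library 2, control library 3 or optimized library 3, while the number of lower genes was 7 to 9 with any 1 library left out. Of the 17 genes, 11 passed under every alternative processing that gave a value, namely Nrp1, Nrp2, Plxna1, Sema4a, Sema4b, Sema4d and Sema6b, all lower, and Sema4c, Sema4g, Sema6c and Epha2, all higher.

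**Figure D1:**
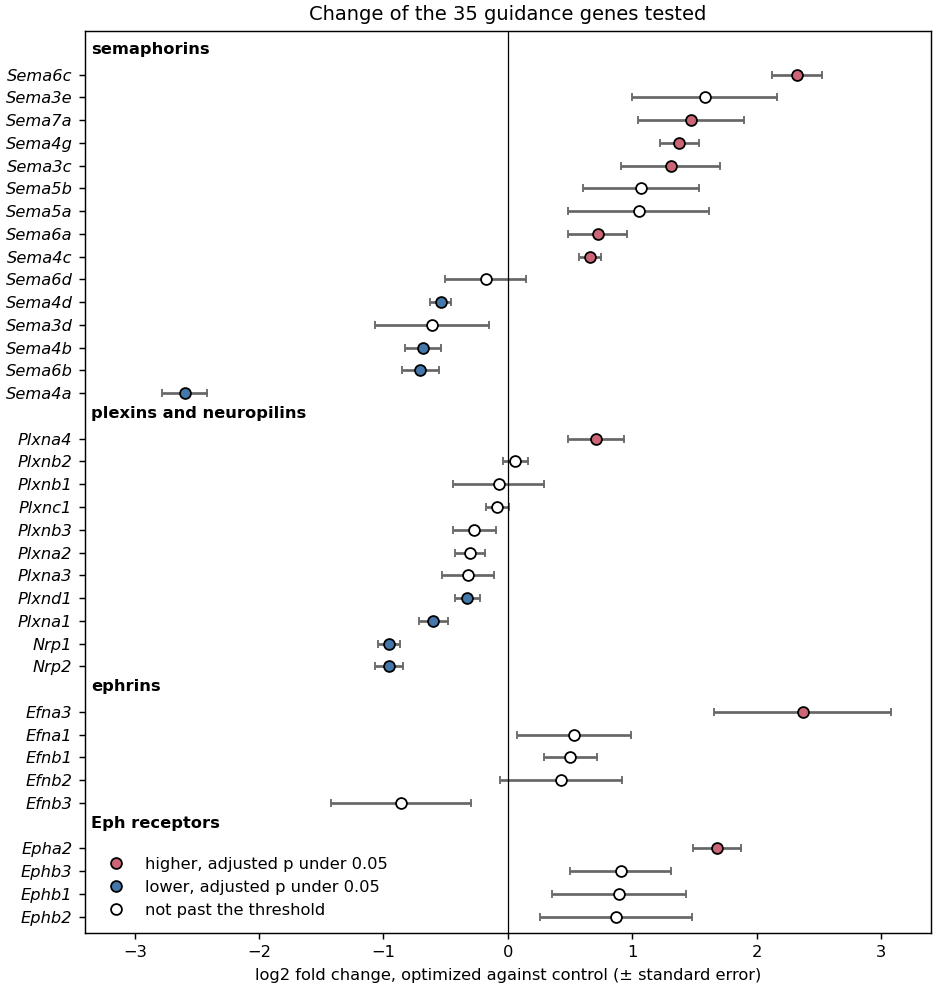
Log2 fold change (x axis, optimized against control) with its standard error for the 35 guidance genes tested, grouped by family; filled points passed an adjusted p-value of 0.05. Sema4a, at -2.60, was the lowest point, both neuropilins lay together at about -0.95, and Efna3 and Sema6c were above 2 with errors of 0.71 and 0.20.

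Levels can be compared between genes only per length, for which the FPKM values of the authors were used (fragments scaled to gene length and library size, not TMM-scaled). In control libraries 13 of the 53 genes averaged at least 1 FPKM, and in optimized libraries 15. Among semaphorins, Sema4d was by far the most abundant at 91.2 ± 2.82 FPKM (SD, n = 3) in control, followed by Sema4c at 8.25 ± 0.71, Sema4a at 4.12 ± 0.69, Sema6b at 2.33 ± 0.13, Sema4b at 1.55 ± 0.035 and Sema4g at 1.30 ± 0.25 FPKM (SD, n = 3 each). Sema4b and Sema4g differed by about their spread, and the other neighbours in this order by more. Sema4d made up 82.6% to 83.3% of the semaphorin FPKM of a control library and 72.8% to 73.5% of that of an optimized library. The share of Sema4c went from 7.50% ± 0.53 to 15.2% ± 0.78, that of Sema4g from 1.17% ± 0.19 to 3.91% ± 0.45, and that of Sema4a from 3.75% ± 0.62 to 0.793% ± 0.16 (SD, n = 3 each). In optimized libraries Sema4g, at 3.06 ± 0.57 FPKM, thus stood next after Sema4c, and Sema4a, at 0.618 ± 0.14 FPKM (SD, n = 3 each), came after Sema6c, Sema6b and Sema4b, and within the spread of Sema7a (0.680 ± 0.41 FPKM). Among receptors, the order in control was Plxnb2 (119 ± 11.1 FPKM), Nrp1 (76.4 ± 5.22), Nrp2 (73.2 ± 4.67), Plxnc1 (22.7 ± 2.22), Plxnd1 (22.3 ± 2.37) and Plxna1 (17.8 ± 2.24; SD, n = 3 each). Nrp1 and Nrp2 did not differ beyond their spread, nor did Plxnc1 and Plxnd1. Plxnb2 made up 34.7% to 35.9% of the plexin and neuropilin FPKM in control and 47.4% to 48.8% in optimized libraries. Its own level in optimized libraries was 113 ± 13.1 FPKM, so it did not rise. The sum of this family went from 337 ± 26.6 to 234 ± 30.6 FPKM (SD, n = 3 each). Ephrins and Eph receptors were scarce, with all 8 ephrins together at 1.86 ± 0.24 and all 14 Eph receptors together at 1.38 ± 0.28 FPKM in control (SD, n = 3 each).

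**Figure D2:**
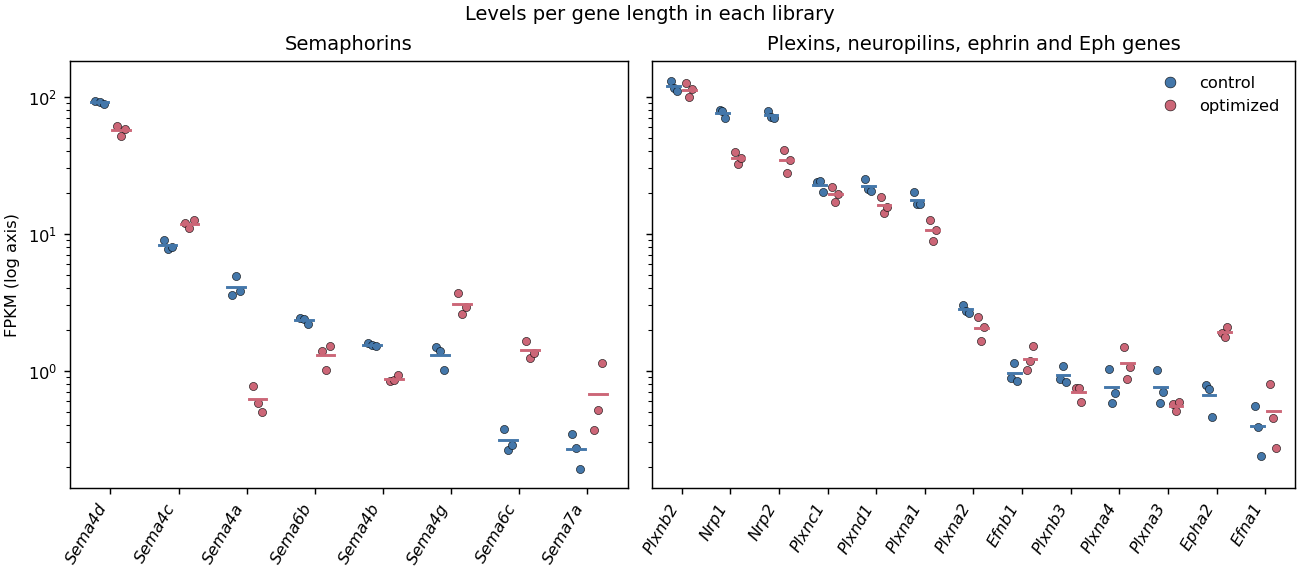
FPKM (y axis, log scale) in each of the 3 control and 3 optimized libraries for genes with a mean of at least 0.5 FPKM in either group, ordered by control mean; points are libraries and lines are means. Sema4d and Plxnb2 lead their panels, and Sema4a drops from 4.12 to 0.618 FPKM.

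Class 4 semaphorins, the class most studied in immune cells, held the largest fall of the set and went both ways: of 6 members 5 were tested, 3 were lower and 2 were higher. Among all genes tested 29.8% passed, and 5 genes are too few to read a share from. Sema4a, which binds plexins and immune receptors and costimulates T cells, had 15.8, 21.4 and 17.9 CPM (after TMM scaling) in control libraries 1 to 3 and 3.69, 2.98 and 2.42 CPM in optimized libraries 1 to 3. Every optimized library was thus far below every control library. The gene, on chromosome 3 of GRCm39 from 88343262 to 88372558, fell by 2.60 on the log2 scale (standard error 0.18, adjusted p = 3.98e-06). Sema4d, known as CD100, is shed from immune cells and binds plexin B1, plexin B2 and CD72. It had 719, 704 and 719.6 CPM in control and 508, 466 and 498 CPM in optimized libraries, a fall by 0.54 (standard error 0.085, adjusted p = 0.00087). The groups did not overlap, and per length the mean level went from 91.2 to 57.0 FPKM, against 4.12 to 0.618 FPKM for Sema4a. Exons of Sema4d share 13.7% of their length with Secisbp2 on the other strand, whose mean count was 0.049 times that of Sema4d. Sema4b had 6.51, 6.32 and 6.63 CPM in control and 3.74, 4.17 and 4.21 CPM in optimized libraries (log2 fold change -0.68, standard error 0.15, adjusted p = 0.0056), again without overlap.

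The other 2 tested members of class 4 rose. Sema4c, a ligand of plexin B2, had 67.3, 57.2 and 62.8 CPM in control libraries and 96.2, 96.2 and 103 CPM in optimized libraries, with no overlap. Its log2 fold change was 0.66 (standard error 0.089, adjusted p = 0.00034). Sema4g, whose gene lies on chromosome 19 from 44977540 to 44991836, had 7.83, 7.34 and 5.71 CPM in control and 21.2, 16.1 and 16.98 CPM in optimized libraries (log2 fold change 1.38, standard error 0.16, adjusted p = 0.00011). Its exons share 1181 bases with Mrpl43 on the other strand, and how reads on both genes were counted is not given in the sources used here. Mrpl43 itself had 720, 784 and 882 counts in control and 502, 926 and 650 counts in optimized libraries and a log2 fold change of -0.016 (adjusted p = 0.96). Sema4f had at most 5 counts in a library and was not tested.

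Class 6 semaphorins span the membrane, bind A-type plexins and can themselves receive signals. All 4 were tested. Sema6c had the largest rise of the family, from 1.71, 1.18 and 1.39 CPM in control to 8.05, 6.60 and 6.77 CPM in optimized libraries. The lowest optimized library was several times the highest control library, and the log2 fold change was 2.32 (standard error 0.20, adjusted p = 1.65e-05). The gene lies on chromosome 3 from 95067726 to 95084627. Sema6b went the other way, from 10.7, 10.5 and 10.2 CPM to 6.68, 5.24 and 7.35 CPM (log2 fold change -0.71, standard error 0.15, adjusted p = 0.0051), without overlap. As a level per length, Sema6b was at 2.33 and Sema6c at 0.310 FPKM in control, and in optimized libraries they were at 1.30 ± 0.26 and 1.41 ± 0.21 FPKM (SD, n = 3 each), within their spread. Sema6a had 2.19, 1.39 and 1.90 CPM in control and 3.22, 3.15 and 2.66 CPM in optimized libraries (log2 fold change 0.72, standard error 0.24, adjusted p = 0.046). Its call did not hold when any 1 library was left out (adjusted p between 0.058 without control library 1 and 0.15 without control library 2), nor with library size alone (0.099). Sema6d, with 1.72 to 2.61 CPM in control and 1.31 to 2.94 CPM in optimized libraries, did not pass (log2 fold change -0.18, standard error 0.33, adjusted p = 0.74).

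Sema7a, the lipid-anchored semaphorin that binds plexin C1 and β1 integrins, had 1.31, 1.02 and 0.769 CPM in control and 1.52, 2.30 and 4.79 CPM in optimized libraries. Optimized library 3 was the highest and optimized library 1 lay close to control library 1. The log2 fold change was 1.47 (standard error 0.43, adjusted p = 0.027), and it was 0.89 with an adjusted p of 0.12 without optimized library 3, the library with 149 CPM of fibroblast and pericyte markers. The part of these markers in Sema7a was not tested. Without control library 2 or control library 3, the adjusted p was 0.095 in both fits.

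Secreted class 3 semaphorins were near the limit of detection. Of 7 genes 3 were tested and 1 passed, against 29.8% of all genes tested. Sema3c had 16, 17 and 9 counts in control and 41, 26 and 25 counts in optimized libraries, which did not overlap (log2 fold change 1.31, standard error 0.40, adjusted p = 0.032). Its adjusted p was above 0.05 without control library 1, 2 or 3 (0.065, 0.066 and 0.13), without optimized library 1 or 3 (0.085 and 0.058) and with library size alone (0.065). Sema3e, the ligand of plexin D1, had 8, 15 and 16 counts in control and 66, 17 and 18 counts in optimized libraries, and was high in optimized library 1 alone (log2 fold change 1.58, standard error 0.58, adjusted p = 0.069). Sema3d had 18 to 24 counts in control and 8 to 20 in optimized libraries (log2 fold change -0.61, adjusted p = 0.37). Sema3a, Sema3b and Sema3f had 3 to 33 counts, the 33 being Sema3f in optimized library 1, and Sema3g had 0 counts in every library, which allows up to 0.11 to 0.145 CPM. Neither class 5 member passed. Sema5a had 10 to 16 counts in control and 43, 9 and 16 counts in the optimized ones (log2 fold change 1.05, adjusted p = 0.20), again with the excess in optimized library 1. Sema5b had 3 to 9 counts in control and 11 to 14 in optimized libraries (log2 fold change 1.07, adjusted p = 0.12). The adjusted p of Sema3e was 0.028 with DESeq2, 0.026 with no filter on low counts and 0.021 without optimized library 2, and that of Sema5a was 0.046 without optimized library 2.

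Both neuropilins fell by nearly the same amount. Nrp1, the co-receptor of class 3 semaphorins that also binds vascular endothelial growth factor, had 481, 469 and 449 CPM in control and 259, 227 and 237 CPM in optimized libraries. The log2 fold change was -0.95 (standard error 0.088, adjusted p = 2.49e-05), a level 1.94-fold lower. Nrp2, its paralogue, had 617, 555 and 585 CPM in control and 347, 259 and 299.6 CPM in optimized libraries (log2 fold change -0.96, standard error 0.12, adjusted p = 0.00017). In both genes the highest optimized library was well below the lowest control library, and across all alternatives the log2 fold changes were -1.09 to -0.92 for Nrp1 and -1.10 to -0.86 for Nrp2. Nrp1 lies on chromosome 8 from 129085085 to 129231082 and Nrp2 on chromosome 1 from 62742444 to 62857854 (GRCm39). Flt1, a receptor of vascular endothelial growth factor in the endothelial list, had 92.7, 76.7 and 79.6 CPM in control and 347, 269 and 279 CPM in optimized libraries (log2 fold change 1.85), while Kdr, in the same list, was at 2.45 to 3.39 CPM in all 6.

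All 9 plexins were tested, and 2 were lower, 1 was higher and 6 did not pass. Among all genes tested 29.8% passed, and 9 genes are too few to tell their share from that. Plxna1, a receptor for class 3 semaphorins with neuropilins and for class 6 semaphorins, had 177, 143 and 153 CPM in control and 119, 91.4 and 102 CPM in optimized libraries, without overlap (log2 fold change -0.60, standard error 0.12, adjusted p = 0.0036). Plxnd1, the receptor of Sema3e, had 176, 149 and 155 CPM in control and 143, 117 and 123 CPM in optimized libraries (log2 fold change -0.32, standard error 0.10, adjusted p = 0.039). Its groups did not overlap, but the adjusted p was 0.15, 0.063 and 0.083 without control library 1, 2 or 3, and 0.094 and 0.14 without optimized library 2 or 3. Plxna4, which pairs with neuropilin 1 for Sema3a and binds class 6 semaphorins, was the one higher plexin. It had 12.6, 7.06 and 8.86 CPM in control and 19.8, 12.4 and 14.3 CPM in optimized libraries, so that control library 1 and optimized library 2 overlapped. Its log2 fold change was 0.71 (standard error 0.23, adjusted p = 0.041), with an adjusted p of 0.16 and 0.13 without control library 2 or 3, 0.055 and 0.069 without optimized library 1 or 3, and 0.12 with library size alone.

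Plxnb2, the most abundant receptor of the set and a receptor for class 4 semaphorins, had 876, 763 and 783 CPM in control and 907, 778 and 839.9 CPM in optimized libraries, which overlapped. Its log2 fold change was 0.060 with a 95% interval of -0.17 to 0.29, and it was -0.065 with library size alone, so that neither its direction nor a change larger than this interval was shown. Plxnc1, the receptor of Sema7a, had 185, 186 and 166 CPM in control and 184, 155 and 167 CPM in optimized libraries (log2 fold change -0.085, 95% interval -0.29 to 0.12). Plxna2 had 43.1, 39.1 and 40.1 CPM in control and 38.5, 27.7 and 32.8 CPM in optimized libraries, and its adjusted p of 0.090 (log2 fold change -0.31) was 0.0030 without optimized library 1 and 0.029 with the replicate number as a block. The other 3 did not pass. Plxna3 had 7.52, 4.28 and 5.56 CPM in control and 4.64, 4.43 and 4.84 CPM in optimized libraries. Plxnb3 had 5.20, 6.40 and 5.27 CPM in control and 4.83, 5.24 and 3.92 CPM in optimized libraries. Plxnb1, the best known Sema4D receptor outside the immune system, was at 1.14 to 2.84 CPM in all 6 libraries. The log2 fold changes were -0.32, -0.27 and -0.072.

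**Figure D3:**
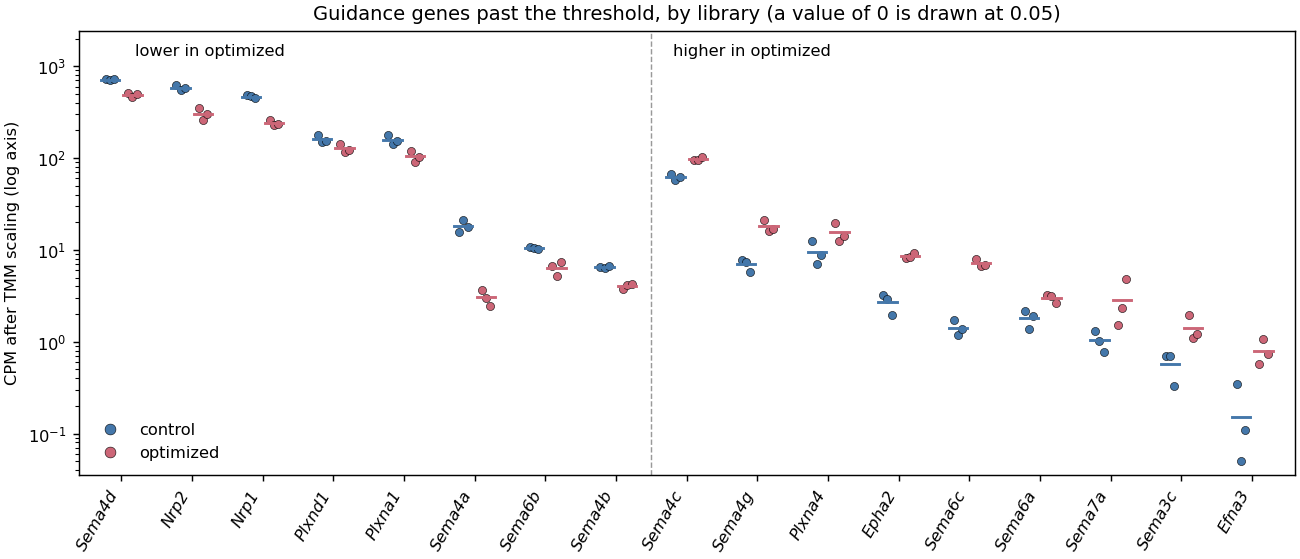
CPM after TMM scaling (y axis, log scale) in each library for the 17 guidance genes past the threshold, those lower under the optimized conditions on the left; points are libraries, lines are group means, and a value of 0 is drawn at 0.05. Control and optimized points overlap in Plxna4. The 17 genes were picked by a test on these same libraries, so points that lie apart are no added support.

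Eph receptors were mostly near the limit of detection, and Epha2, a receptor of A-type ephrins, was the exception. Epha2 had 73, 72 and 54 counts in control and 174, 196 and 192 counts in optimized libraries, or 3.19, 2.94 and 1.98 against 8.24, 8.34 and 9.29 CPM. The groups were far apart, and the log2 fold change was 1.68 (standard error 0.19, adjusted p = 0.00012), a 3.20-fold difference. The gene lies on chromosome 4 from 141028540 to 141056695. The other tested receptors, of the B type, had higher means in optimized libraries but overlapped. Ephb3 had 13, 28 and 26 counts in control and 47, 21 and 40 counts in the optimized ones (log2 fold change 0.91, adjusted p = 0.13, and 0.031 without optimized library 2). Ephb1 (4 to 16 against 10 to 21 counts) and Ephb2 (5 to 23 against 10 to 30 counts) had log2 fold changes of 0.90 and 0.87 with adjusted p-values of 0.26 and 0.33. The remaining 10 receptors, Epha1, Epha3, Epha4, Epha5, Epha6, Epha7, Epha8, Epha10, Ephb4 and Ephb6, had at most 35 counts in a library. The 35 were Epha1 in optimized library 1, and 36.9% of the exon length of Epha1 is shared with Zyx on the other strand, whose mean count was 102 times as high. Epha6 and Epha10 had 0 counts in every library.

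Ephrins were also scarce. Efnb1, the most abundant, which encodes a transmembrane ephrin, had 66, 90 and 80 counts in control and 75, 105 and 112 counts in optimized libraries. The log2 fold change was 0.50 (standard error 0.21, adjusted p = 0.11, and 0.025 without optimized library 1), and the groups overlapped in CPM. Efna3 was the one ephrin past the threshold, with 8, 0 and 3 counts in control and 12, 25 and 15 counts in the optimized ones. Its log2 fold change of 2.37 had a standard error of 0.71 (adjusted p = 0.031). The adjusted p was 0.075 and 0.12 without control library 2 or 3, and 0.083 and 0.069 without optimized library 2 or 3. The log2 fold change in these fits was 1.80, 2.17, 2.07 and 2.42. At these counts the call thus did not hold when any of these libraries was left out. Exons of Efna3 share 30.65% of their length with Gm15998 on the other strand. Gm15998 had 2, 0 and 4 counts in control and 3, 5 and 8 counts in optimized libraries and was not tested. Efna1, also on chromosome 3, had 11 to 20 counts in control and 10 to 29 in optimized libraries (log2 fold change 0.53, adjusted p = 0.44). Efnb2 had 8 to 27 against 16 to 35 counts (0.43, adjusted p = 0.57) and Efnb3 13 to 21 against 2 to 16 counts (-0.86, adjusted p = 0.30). Efna2, Efna4 and Efna5 had at most 17 counts and were not tested.

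The promoters of 4 genes are shown because they belong to the largest changes in each direction with a call that held throughout: Sema4a and Nrp2, which fell, and Sema6c and Epha2, which rose. Each runs from 250 bases before to 50 bases after the start of the canonical GENCODE M39 transcript on GRCm39, read 5′ to 3′ in the direction of the gene. Other start sites exist, and which one these cells used was not measured. Capitals mark CAGAC or its reverse complement GTCTG (a SMAD-type CAGA box), GGGCGG or CCGCCC (a GC box, where overlapping matches run together) and GAGGAAGT or ACTTCCTC (a PU.1-type site).
Sema4a, chr3:88363023-88363322, minus strand: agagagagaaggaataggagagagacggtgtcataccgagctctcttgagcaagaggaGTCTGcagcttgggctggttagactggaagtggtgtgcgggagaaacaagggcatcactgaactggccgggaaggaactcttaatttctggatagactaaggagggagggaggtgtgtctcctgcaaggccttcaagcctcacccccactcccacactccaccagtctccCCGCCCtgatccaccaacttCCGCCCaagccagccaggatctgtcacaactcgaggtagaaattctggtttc
Sema6c, chr3:95067481-95067780, plus strand: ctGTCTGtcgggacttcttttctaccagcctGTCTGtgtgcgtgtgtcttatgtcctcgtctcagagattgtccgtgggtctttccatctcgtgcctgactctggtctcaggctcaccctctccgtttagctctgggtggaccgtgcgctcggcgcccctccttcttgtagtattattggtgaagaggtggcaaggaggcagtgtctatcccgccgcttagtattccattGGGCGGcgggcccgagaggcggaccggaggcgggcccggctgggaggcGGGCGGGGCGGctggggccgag
Nrp2, chr1:62742194-62742493, plus strand: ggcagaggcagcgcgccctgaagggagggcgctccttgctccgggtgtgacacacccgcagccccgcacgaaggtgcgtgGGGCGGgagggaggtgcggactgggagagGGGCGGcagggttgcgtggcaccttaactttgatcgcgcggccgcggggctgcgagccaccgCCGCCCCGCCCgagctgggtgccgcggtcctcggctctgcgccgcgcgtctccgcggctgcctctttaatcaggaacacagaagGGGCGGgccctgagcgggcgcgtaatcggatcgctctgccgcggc
Epha2, chr4:141028290-141028589, plus strand: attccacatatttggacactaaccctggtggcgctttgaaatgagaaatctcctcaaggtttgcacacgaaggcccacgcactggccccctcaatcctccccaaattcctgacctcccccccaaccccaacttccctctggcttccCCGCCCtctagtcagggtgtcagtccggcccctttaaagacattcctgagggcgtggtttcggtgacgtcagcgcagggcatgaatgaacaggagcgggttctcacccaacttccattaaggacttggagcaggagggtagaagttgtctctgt
The CAGA box letters were found in 1 place in Sema4a and 2 in Sema6c, and in neither of the other promoters. Of the 53 guidance gene promoters, 30 (56.6%) held them, with 5 of the 9 higher and 5 of the 8 lower genes, against 48.4% of 21751 promoters of all protein-coding genes. GC boxes were in 36 of the 53 (67.9%), in 7 of the 9 higher and all 8 lower genes, against 42.5% of all promoters. G and C made up 55% (Sema4a) to 75.3% (Plxna1) of the lower genes' promoters, and 43.3% (Sema3c) to 74.3% (Plxna4) of the higher genes'. This content was not computed for all promoters, which also include genes not tested here, so no enrichment of GC boxes was shown. The PU.1-type letters were in none of the 53 and in 3.08% of all promoters. These are matches of letters in a short window and not measured binding.

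Other genes of the pathways were taken from 3 lists. The 46 partners of semaphorin signalling are co-receptors, GTPases and cytoskeletal effectors of plexins. Of them 42 were tested, 5 were higher and 9 lower, the median of their log2 fold changes was 0.091, and 33.3% passed, close to the 29.8% of all genes. Cd72, an inhibitory receptor that binds Sema4D, had 577, 557 and 586 CPM in control and 249, 286 and 295 CPM in optimized libraries (log2 fold change -1.05, standard error 0.094). Its exons share 59.4% of their length with Tesk1 on the other strand, which had 0.51 times its mean count and a log2 fold change of -0.38 (adjusted p = 0.011). Pak1, a kinase of Rac signalling, and Dpysl2, a microtubule-binding mediator of Sema3A signals, had log2 fold changes of -1.01 and -0.86. Upwards, Mical2, an actin-oxidising enzyme of the family that acts below A-type plexins, had 11.98, 11.5 and 9.88 CPM in control and 48.1, 32.9 and 41.6 CPM in optimized libraries (log2 fold change 1.88, standard error 0.15). Ptk7, a kinase-like co-receptor, had a log2 fold change of 1.83, and Trem2, a lipid receptor that can form a complex with plexin A1, one of 0.73 (it is also among the microglial markers). With 1 library left out, between 3 genes (without control library 1 or 2) and 8 genes (without optimized library 1) were higher.

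Of 49 partners of Eph and ephrin signalling, 41 were tested, 10 were higher and 12 lower, with a median of -0.11. Past the threshold were 53.7%, against 29.8% of all genes tested. The adaptor Dok2, which damps signals of tyrosine kinases, had 81.8, 71.2 and 82.3 CPM in control and 11.03, 14.9 and 11.1 CPM in optimized libraries (log2 fold change -2.67, standard error 0.13, adjusted p = 5.19e-07). Vav3, a signalling protein downstream of Eph receptors, and Itsn1, an exchange factor for Cdc42, had log2 fold changes of -2.08 and -1.78. Among higher genes, Adam10, the membrane protease that cleaves ephrins bound to Eph receptors, had 139.8, 153 and 138 CPM in control and 292, 259.9 and 274 CPM in optimized libraries (log2 fold change 0.94, standard error 0.086). Nedd9, a scaffold protein of integrin signals, had 1.61, and Chn2, a GTPase-activating protein for Rac, had 1.13. With library size alone 4 genes of this list were higher, and without control library 3 there were 6. The third list held 31 netrin, Slit and RGM genes with their receptors and effectors. Of these 16 were tested, 1 was higher and 3 lower (25%, against 29.8% of all genes), with a median of 0.21. Srgap2, an effector of Slit receptors that shapes membrane protrusions, had 373, 350.0 and 324 CPM in control and 213, 154 and 172 CPM in optimized libraries (log2 fold change -0.96). Flrt2, a ligand of Unc5 receptors, had a log2 fold change of -0.49 and Unc5b, a netrin receptor, one of 0.49. With 1 library left out, the list had 0 higher genes in 5 of the 6 fits, and 1 without optimized library 1.

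**Figure D4:**
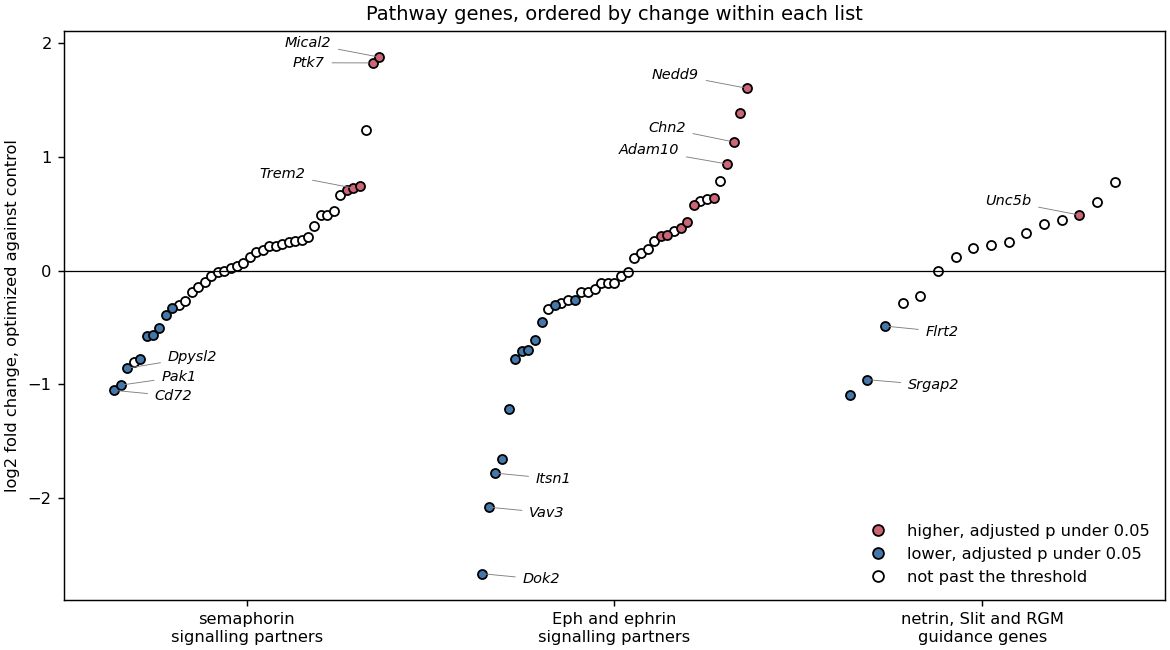
Log2 fold change (y axis, optimized against control) of the tested genes of 3 pathway lists, ordered by change within each list; filled points passed an adjusted p-value of 0.05, and labelled points are the genes named by rule. The widest spread is in the Eph and ephrin partners, from -2.67 (Dok2) to 1.61 (Nedd9).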

How the data were processed

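Per the labels and the study's methods, paired-end reads were mapped to mm39 (GRCm39) with HISAT2 and counted per gene with featureCounts in Galaxy. Tool versions, annotation and strand setting are not given in the sources used here. The authors deposited raw counts per gene for 6 libraries of 20628148 to 27261839 counts, and a table of FPKM values that the authors derived from them. FPKM was used only for levels per length and in alternatives. No column belonged to samples of another study (0 columns).

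Counts were tested with edgeR 4.0.16 in R 4.3.3 (filterByExpr, TMM scaling, quasi-likelihood F-test, 3 optimized against 3 control libraries, no covariate), with Benjamini-Hochberg adjustment over the 14618 genes that passed the filter of 41079. CPM values are TMM-scaled, and standard errors were obtained from the log2 fold change and its F statistic. The script was tested on simulated data. An exact permutation test of 3 against 3 cannot go below p = 0.1, so none was used. A count of 0 was taken to allow up to 3 counts, a limit for counting error only. Gene positions, exon overlaps and promoters came from GENCODE M39 on GRCm39, in which all 53 guidance genes were found by symbol. All tested guidance genes are named. From each pathway list, the up to 3 highest and 3 lowest genes past the threshold with a mean of at least 5 CPM are named. The other genes named (exon-overlap partners, Flt1, Kdr and other cell type markers) were chosen after their values were seen. The guidance genes and all lists were chosen with earlier results of these data known. Alternatives were RLE factors, library size alone, DESeq2 1.42.0, other filters, the replicate number as a block, leaving out each library, and limma 3.58.1 on log2(FPKM + 1) and log2(FPKM + 0.1).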

Additional observations from a re-analysis of the deposited data

How the results depend on the processing

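Of the 17 calls, 15 could be tested with at least 10 counts in every library and 11 with a mean of at least 1 FPKM, and all 17 in the other alternatives. The 4 rises and 7 falls named in the report as held passed in all 14 to 15 alternatives that gave a value, and Efna3, Plxna4, Plxnd1, Sema3c, Sema6a and Sema7a lost their call in 4 to 10. The cause was not tested where none is given. With limma on log2(FPKM + 1), log2(FPKM + 0.1) and, for genes of at least 1 FPKM, log2(FPKM + 1), higher guidance genes numbered 5, 5 and 3, higher semaphorins 3, 3 and 2, higher plexins and neuropilins 0, 0 and 0, higher Eph partners 5, 5 and 5 and higher netrin, Slit and RGM genes 0, 0 and 0. Higher semaphorin partners numbered 3 with log2(FPKM + 1). In the third of these fits, with fewer genes tested, 1176 genes of all were higher and 2962 lower, and 0 ephrins were higher, as with at least 10 counts in every library (0). FPKM values carry no TMM scaling, and with library size alone 0 plexins and neuropilins, 4 Eph partners and 0 netrin genes were higher; the last were also 0 without a filter on low counts. With 1 library left out, the ranges were 1603 to 2591 higher and 1646 to 2643 lower genes in all, 4 to 10 and 7 to 9 guidance genes, 3 to 7 higher and 4 to 4 lower semaphorins, 0 to 1 and 3 to 5 plexins and neuropilins, 0 to 2 higher ephrins, 1 to 2 higher Eph receptors, 3 to 8 and 6 to 11 semaphorin partners, 6 to 10 and 10 to 14 Eph partners, and 0 to 1 and 3 to 3 netrin genes. Directions that turned, none of them past the threshold, were Efnb2 (log2 fold change -0.011 without optimized library 1, up to 0.69 without control library 1), Plxnb1 (0.23 without control library 1 and 0.15 without optimized library 2, down to -0.36 without control library 2), Sema6d (0.047 without optimized library 3, down to -0.56 without optimized library 1) and Plxnb2 (-0.065 with library size alone, and -0.079, -0.080 and -0.079 in the limma fits). Whether libraries of the same number were paired is not given in the sources used here. Their deviations from the group mean correlated at 0.352, -0.0244 and 0.213. Control and optimized libraries of different number correlated at -0.377 to 0.285, so few values of wide range can neither show nor exclude a pairing. With the replicate number as a block, 9 guidance genes were higher and 9 lower, Plxna2 being the addition, and 2401 and 2523 genes of all. Depth limits the scarce genes, as 18 of the 53 could not be tested and Efna3 had at most 25 counts.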
